A study of Rattus norvegicus with 12 samples.

Results

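Chemokines are small secreted proteins that direct the movement of cells, interleukins are secreted signals between cells, and both act through receptors on the cell surface. The genes described here were those whose symbol on the array annotation names a chemokine ligand (Ccl, Cxcl or Cx3cl), a chemokine receptor (Ccr, Cxcr or Ackr) or an interleukin, interleukin receptor or interleukin-binding protein (Il followed by a digit). The rule used names alone. It found 94 genes of the 14217 measured, namely 28 chemokine ligands, 15 chemokine receptors, 25 interleukins and 26 interleukin receptors and binding proteins. The 94 genes had 120 probe sets, a probe set being the group of array probes that reports one transcript or several similar ones. The brightest probe set stood for each gene, and 18 genes had more than 1.

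The cells were F111, an established fibroblast line of the Fischer rat, and every array came from unmodified F111 cells grown with fetal calf serum. A16 cells had been detached with trypsin and plated for 16 h on uncoated plastic, where they attach. NA16 cells had been detached in the same way and kept for 16 h on agarose, where they stay in suspension. By the study's text, most F111 cells lose viability within 16 h in suspension, and the survivors are given the name NA16. No source used here says whether dying cells were removed before RNA extraction. The line carries chromosome abnormalities, and it stands for fibroblasts in culture, without the leukocytes on which most of these proteins act in tissue. Each state had 3 arrays, from biological replicate 1, technical replicate 2 and biological replicate 2. Technical replicate 2 was averaged with biological replicate 1, so that n = 2 per state, and this number limits the precision of every value. The labels do not say what made a replicate biological, so a p-value here reflects only how far these samples differed from each other, and that spread may be technical. The comparison asked which transcripts differ after loss of adhesion.

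Fibroblasts are known as a source of chemokines and of interleukin 6 in injured or inflamed tissue. Chemokine receptors couple to G proteins, while the atypical receptors (Ackr) take up chemokines and signal weakly or not through G proteins. Most interleukin receptors signal through JAK kinases and STAT factors, and receptors of the interleukin 1 family signal through MyD88 and IRAK proteins to NF-kappaB.

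Values are log2 intensities after RMA, which with PLIER is one of the 2 normalizations of these arrays in the study, and a difference of 1 on this scale is a 2-fold change. Changes are between states for the same probe set, and levels of different genes are not compared as results. A constant close to 16 appears to have been added to the linear intensities before deposit, so the change of a dim gene is understated. As a guide to what an unexpressed gene reads, 36 olfactory, taste and pheromone receptor, hair keratin-associated protein and defensin genes had a median of 5.56, and their 90th percentile, 6.47, was taken as the background level. None of the 36 was called between the states. The brightest of them read 7.24. A mean between 6.47 and 7.24 thus counts as above background but lies within the range of these genes. A gene was near background where both state means lay below this level. By that measure 49 of the 94 genes (52.1%) were near background, against 23.3% of all genes. In RNA from a whole culture, fewer cells of a type and less RNA per cell cannot be told apart.

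In NA16 cells 17 of the 94 genes rose and 5 fell against A16 cells, with an adjusted p below 0.05 taken as the call (limma, adjusted over all 14217 genes). These 22 genes were 23.4% of the 94, against 38.9% of all genes called, with 21.9% higher and 16.9% lower. Among genes above background the shares were closer, 46.7% of those in the set and 49.6% of all such genes. At least 2-fold change was reached by 8 genes that rose and 4 that fell, while 13.9% of all genes were called with such a change. The A16 and NA16 arrays did not overlap for 37 of the 94 genes (39.4%), against 51.7% of all genes, and all 22 called genes were among the 37. The median change was -0.03 over the 94 genes and 0.01 over all genes. A gene-by-gene test with equal variance, which shares no spread between genes, gave an unadjusted p below 0.05 for 21 of the 94 genes and for 4643 of all genes. With a change over 2-fold as well, 11 of the 94 and 1809 of all genes passed. After adjustment 0 of the 94 and 20 of all genes passed.

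**Figure D1:**
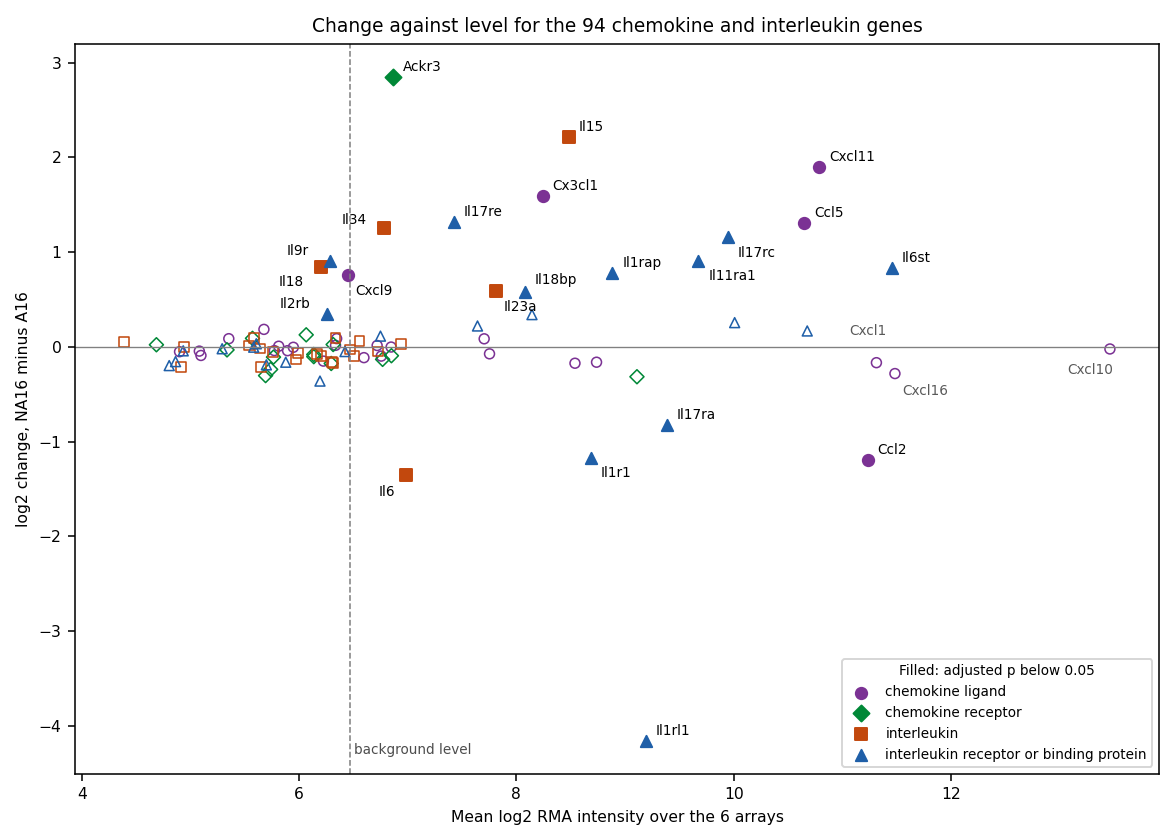
Change between the states (vertical axis, log2 NA16 minus A16) against the mean log2 RMA intensity over the 6 arrays (horizontal axis) for the 94 genes. Filled symbols are the 22 called genes, open symbols the 72 others, shapes and colours give the 4 roles, and the dashed line is the background level of 6.47. Il1rl1 lies lowest at -4.16 and Ackr3 highest at 2.85, and most open symbols lie left of the dashed line close to 0.

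Among the 28 chemokine ligands, 4 rose, 1 fell and 23 were not called, and 12 of the 23 were near background. The called genes were 17.9% of the 28, against 38.9% of all genes. The called ligands were Cxcl11, Cx3cl1, Ccl5 and Cxcl9, which rose, and Ccl2, which fell. The 11 ligands above background that were not called changed by -0.28 to 0.08. In each of the following sentences the 3 values of a state are biological replicate 1, technical replicate 2 and biological replicate 2, in this order.

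Cxcl11 encodes one of the 3 interferon-induced ligands of the receptor CXCR3. It read 9.81, 9.87 and 9.90 on the A16 arrays and 11.69, 11.51 and 11.95 on the NA16 arrays. Its mean went from 9.87 ± 0.04 to 11.77 ± 0.25 (SD, n = 2), and rose by 1.90 on the log2 scale (3.73-fold higher, SE 0.15, adjusted p = 1.5e-04). All NA16 arrays lay more than 1 unit above the highest A16 array. Cxcl9, another ligand of CXCR3, rose from 6.05 ± 0.13 to 6.81 ± 0.01 (SD, n = 2), a change of 0.75 with an adjusted p of 0.0026, from an A16 mean below the background level. Its second probe set rose too, by 1.15. Cxcl10, the other CXCR3 ligand, was bright in both states and showed no called change. It read 13.39, 13.45 and 13.62 in A16 and 13.26, 13.39 and 13.67 in NA16, so the arrays of the states overlapped. Its difference was -0.02 with a 95% interval of -0.39 to 0.34. Cxcr3 itself was near background in both states, at 5.86 and 5.62.

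Cxcl11, Cxcl10 and Cxcl9 are immediate neighbours among the 94 genes on rat chromosome 14, in this order, and their upstream sequences are shown because both outer genes were called and the one between them was not, a difference between genes that was not itself tested. The order along the chromosome was Cxcl13, Cxcl11, Cxcl10, Cxcl9, Cxcl2, Cxcl1, Cxcl3 and Cxcl6, and Cxcl11 and Cxcl9 were the only genes of these 8 that were called. The 250 bases before each start are printed 5′ to 3′ from RefSeq (GRCr8). Capitals mark matches on either strand to the NF-kappaB motif, to the interferon-stimulated response element (GAAA, any 2 bases and GAAA) and to the gamma-activated site TTCNNNGAA. No marked matches overlap.
Cxcl11 (chr14:15973478-15973727, + strand): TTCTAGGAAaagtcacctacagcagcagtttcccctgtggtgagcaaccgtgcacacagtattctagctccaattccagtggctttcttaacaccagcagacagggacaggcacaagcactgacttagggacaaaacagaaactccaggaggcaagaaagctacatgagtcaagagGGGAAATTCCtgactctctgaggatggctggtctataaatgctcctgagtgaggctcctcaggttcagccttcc
Cxcl10 (chr14:15988816-15989065, + strand): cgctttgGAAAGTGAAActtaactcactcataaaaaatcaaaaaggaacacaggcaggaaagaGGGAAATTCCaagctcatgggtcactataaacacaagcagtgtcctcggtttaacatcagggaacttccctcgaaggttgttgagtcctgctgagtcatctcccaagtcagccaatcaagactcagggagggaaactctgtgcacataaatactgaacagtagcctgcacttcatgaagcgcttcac
Cxcl9 (chr14:16006916-16007165, + strand): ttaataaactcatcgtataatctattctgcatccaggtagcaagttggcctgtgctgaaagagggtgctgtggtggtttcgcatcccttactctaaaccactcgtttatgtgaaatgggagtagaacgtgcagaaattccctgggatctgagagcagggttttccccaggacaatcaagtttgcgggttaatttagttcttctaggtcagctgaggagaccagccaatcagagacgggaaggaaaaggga

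Cxcl11 and Cxcl10 shared the NF-kappaB match GGGAAATTCC, which began 74 bases before the start in Cxcl11 and 187 bases before it in Cxcl10. The interferon-stimulated response element match GAAAGTGAAA of Cxcl10 began 243 bases before the start, and the gamma-activated site match TTCTAGGAA of Cxcl11 began 250 bases before it. The upstream stretch of Cxcl9 held none of these matches, and a gamma-activated site match lay 32 bases after its start. RefSeq windows of 250 bases before to 50 after the start were given for 71 of the 94 genes. The NF-kappaB motif lay in 13 of them (18.3%), against 4.18% of 33469 windows of the same length. The interferon-stimulated response element lay in 7 (9.86% against 2.99%) and the gamma-activated site in 9 (12.7% against 6.99%). Also searched, but not marked in the printed stretches, were the AP-1 motif TGANTCA and the hypoxia response element ACGTG. AP-1 lay in 10 windows (14.1% against 5.44%) and the hypoxia element in 8 (11.3% against 24%). AP-1 matches began 85 bases before the start in Cxcl11 and 96 in Cxcl10, and a hypoxia element match 125 bases before it in Cxcl9. Of the 71 genes with a window 15 were called, while the share over all genes was 38.9%. Of the 13 with an NF-kappaB match, Cxcl11 and Il1rap rose, Il1r1 and Il6 fell and the others were not called. Of the 7 with an interferon-stimulated response element match, Il18bp, Il1rap and Il6st rose and none fell. Cxcl11 and Cxcl9 rose among the 9 with a gamma-activated site match, and none fell. Cxcl11, Il15 and Il18 rose among the 10 with an AP-1 match, and Cxcl9 among the 8 with a hypoxia element match, and none fell. Whether a motif goes with a call was not tested. A match is a description of the letters and not a bound site.

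Cx3cl1 encodes fractalkine, a chemokine that is made as a membrane protein and can be shed. It read 7.35, 7.38 and 7.73 in A16 and 8.47, 8.96 and 9.57 in NA16. The mean moved from 7.55 ± 0.26 to 9.14 ± 0.61 (SD, n = 2), and rose by 1.60 on the log2 scale (3.03-fold higher, SE 0.28, adjusted p = 0.0038). The states did not overlap, but the NA16 arrays spread over 1 unit, with biological replicate 1 lowest and biological replicate 2 highest, and the change ranged from 1.17 to 2.49 over the alternative settings. Its receptor gene Cx3cr1 was near background, at 6.34 in A16 and 6.29 in NA16.

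Ccl5 encodes RANTES, which attracts T cells and monocytes. It read 10.07, 9.77 and 10.16 in A16 and 11.33, 11.04 and 11.52 in NA16. Its mean went from 10.04 ± 0.17 to 11.35 ± 0.24 (SD, n = 2), and rose by 1.31 on the log2 scale (2.48-fold higher, SE 0.15, adjusted p = 7.4e-04). The lowest NA16 array lay above the highest A16 array. Ccl2 encodes the monocyte attractant MCP-1 and was the only chemokine ligand that fell. It read 11.92, 12.04 and 11.69 in A16 and 10.66, 10.30 and 10.79 in NA16. The Ccl2 mean changed from 11.83 ± 0.21 to 10.63 ± 0.22 (SD, n = 2), and fell by 1.20 on the log2 scale (2.29-fold lower, SE 0.16, adjusted p = 0.0012). In both states technical replicate 2 was the farthest from biological replicate 2, and the states did not overlap.

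Ccl2 and Ccl5 lie in the same chemokine cluster on chromosome 10, with the order Ccl2, Ccl7, Ccl11, Ccl5, Ccl9, Ccl6, Ccl3 and Ccl4, and the other genes of these 8 were not called. Ccl7, the neighbour of Ccl2 and like it a ligand of CCR2, differed by 0.08 with a 95% interval of -0.18 to 0.35. Ccr2 was near background, at 5.33 in A16 and 5.30 in NA16. Among the neutrophil attractants, Cxcl1 was at 11.40 in A16 and 11.23 in NA16, a difference of -0.17 with a 95% interval of -0.52 to 0.18. Cxcl2 and Cxcl6 were near background, and Cxcl3 differed by -0.07 on its brightest probe set, at 7.75 in A16. Another Cxcl3 probe set read 7.76 in A16, but the rest, at 6.36, 5.27 and 4.56, were near background in both states. The Cxcl3 probe sets thus disagree on whether it is expressed. Cxcl16, a chemokine that also exists as a membrane protein, was at 11.65 in A16 and 11.37 in NA16. The 3 arrays of each state did not overlap, and the difference of -0.28 was not called (adjusted p = 0.16). Cxcl12, known as a product of stromal fibroblasts, was near background in both states on all 3 of its probe sets.

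**Figure D2:**
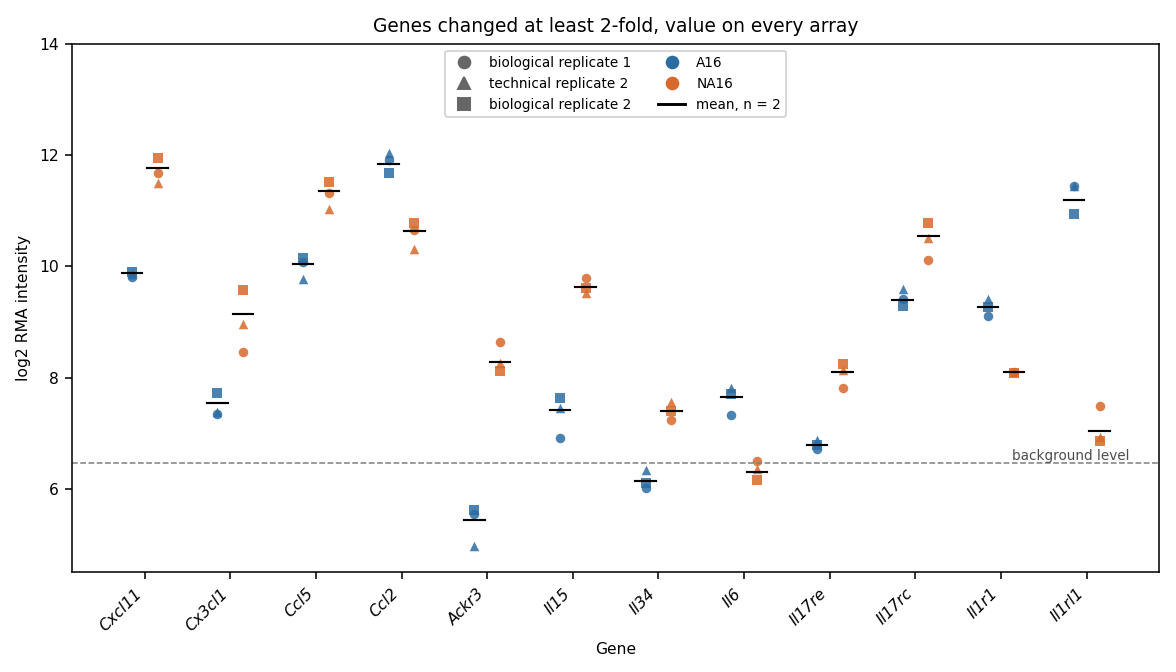
Log2 RMA intensity (vertical axis) on every array for the 12 genes called with at least 2-fold change, in the order of their roles. Blue symbols are A16 and orange symbols NA16 arrays, the symbol shape gives the replicate, black bars are means over n = 2 replicates, and the dashed line is the background level. The states do not overlap for any of the 12 genes, and Ackr3 and Il34 rise from below the dashed line while Il6 falls to it.

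Of the 15 chemokine receptor genes 11 were near background in both states, among them Cxcr4, Cxcr3, Ccr1, Ccr2 and Ackr1. Ackr3 was the only one called (6.67% of the 15, against 38.9% of all genes). It encodes the atypical receptor CXCR7, which binds CXCL12 and CXCL11 and takes them up. It read 5.56, 4.98 and 5.62 in A16 and 8.65, 8.26 and 8.13 in NA16. The Ackr3 mean moved from 5.44 ± 0.25 to 8.29 ± 0.23 (SD, n = 2), and rose by 2.85 on the log2 scale (7.2-fold higher, SE 0.17, adjusted p = 7.4e-05), the largest rise among the 94 genes. All A16 arrays lay below the background level and all NA16 arrays above it, so the fold is measured against a background reading. The NA16 mean lay 1.82 above the background level. With PLIER, a second normalization of the same arrays, the change was 3.43. Of the ligands of this receptor, Cxcl11 rose as described and Cxcl12 was near background.

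Cxcr5, a receptor known from B cells, gave 9.27 in A16 and 8.95 in NA16. The arrays did not overlap, but the difference of -0.32 was not called (adjusted p = 0.066), and it passed the threshold in 4 of 18 alternative settings. Its second probe set was near background, at 5.98 and 5.96, so the probe sets named for this gene disagree on whether it is expressed. Ackr2, a receptor that degrades CC chemokines, differed by -0.09, and its second probe set was near background, at 4.32 and 4.29. The genes that act after chemokine receptors were described by a list of G protein subunits, receptor kinases, arrestins and regulators. Of its 17 measured genes 3 were higher and 1 was lower (23.5%, against 38.9% of all genes called), with a median change of -0.06. Rgs2, a regulator that shortens G protein signals, rose by 1.84 on the log2 scale and Plcb3, a phospholipase, by 0.92. Grk6, a kinase that prepares receptors for arrest, fell by 1.16.

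Among the 25 interleukin genes, 4 rose, 1 fell (20% called, against 38.9% of all genes) and 15 were near background in both states. The genes that rose were Il15, Il34, Il18 and Il23a, and Il6 fell. The other 5 above background had means between 6.47 and 6.94 and changed by -0.10 to 0.06.

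Il15 encodes a cytokine that supports natural killer and memory T cells and is usually presented on the surface of the cell that makes it. It read 6.91, 7.45 and 7.64 in A16 and 9.78, 9.53 and 9.61 in NA16. Its mean went from 7.41 ± 0.33 to 9.63 ± 0.04 (SD, n = 2), and rose by 2.22 on the log2 scale (4.66-fold higher, SE 0.17, adjusted p = 1.4e-04). Every NA16 array lay more than 1 unit above the highest A16 array. Of the receptor chains it shares with interleukin 2, Il2rb was near background in both states, at 6.08 and 6.43. Il2rb passed the threshold with a change of 0.35 (adjusted p = 0.044), and lost this call in 10 of 17 alternative settings, including each one that left out a replicate. Il2rg and Il2ra were near background and not called.

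Il34 encodes a second ligand of the macrophage growth factor receptor CSF1R. It read 6.02, 6.35 and 6.11 in A16 and 7.24, 7.56 and 7.41 in NA16. The mean moved from 6.15 ± 0.05 to 7.40 ± 0.01 (SD, n = 2), and rose by 1.26 on the log2 scale (2.39-fold higher, SE 0.11, adjusted p = 2.5e-04). The A16 arrays were all below the background level and the NA16 mean lay 0.94 above it. Csf1, the other ligand of this receptor, fell by 0.58 on the log2 scale, from 11.18 to 10.60 (adjusted p = 0.020). Csf1r itself was near background, at 5.80 in A16 and 5.70 in NA16.

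Il18, a cytokine of the interleukin 1 family that is made as a precursor and cut by caspase 1, rose by 0.85 from a mean of 5.80, below background, to 6.64 (adjusted p = 0.0030). Il18bp, which encodes the secreted protein that binds and neutralises interleukin 18, rose by 0.58, from 7.83 to 8.41 (adjusted p = 0.014). The call of Il18bp was lost without A16 replicate 1 and without NA16 replicate 2, where the change was 0.47 in both. Of 5 measured genes of the inflammasome and of caspase processing 3 were called higher and 0 lower, against 21.9% of all genes called higher, and the median change was 0.54 against 0.01 over all genes. A list this short gives no reading of the group as a whole. Casp4, a caspase that responds to lipopolysaccharide in the cytosol, rose by 2.16 on the log2 scale. Pycard, the adapter ASC, rose by 1.60 and Casp1 by 0.54. The call of Casp1 was lost without NA16 replicate 2, at a change of 0.51. Il1a and Il1b, precursors of the same family, were near background in both states and were not called.

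Il23a encodes the p19 chain of interleukin 23 and rose by 0.59, from 7.50 to 8.09 (adjusted p = 0.0079). Its partner chain gene Il12b differed by -0.05, at 6.71 in A16 and 6.66 in NA16. Ebi3, a gene from the list of related cytokines that encodes the shared chain of interleukins 27 and 35, rose by 1.34 on the log2 scale, from 5.66 to 7.01, and its partner in interleukin 35, Il12a, was near background. In this list of 25 measured cytokine and receptor genes outside the name rule, 4 were higher, 3 were lower (28% in all, against 38.9% of all genes) and 12 were near background, with a median change of 0.02. Besides Ebi3, its largest called changes were a fall of Ctf1 by 1.37 and a rise of Crlf2, a receptor chain for thymic stromal lymphopoietin, by 0.76.

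Il6 encodes interleukin 6, a cytokine of the acute inflammatory response. It read 7.34, 7.82 and 7.72 in A16 and 6.50, 6.37 and 6.16 in NA16. The mean changed from 7.65 ± 0.10 to 6.30 ± 0.20 (SD, n = 2), and fell by 1.35 on the log2 scale (2.55-fold lower, SE 0.14, adjusted p = 4.2e-04). The NA16 mean lay below the background level, as did 2 of the 3 NA16 arrays, so the fold is measured against a background reading. Of the receptor chains of this family, Il6st and Il11ra1 rose. Il6st encodes gp130, the signalling chain that the receptors of interleukins 6 and 11 share, and rose by 0.83, from 11.05 ± 0.06 to 11.88 ± 0.02 (SD, n = 2, adjusted p = 0.0012). All 4 probe sets of Il6st were called higher, with changes of 0.60 to 0.84. Il11ra1, the chain that binds interleukin 11, rose by 0.91, from 9.23 to 10.14 (adjusted p = 8.7e-04). Il6r, the chain that binds interleukin 6, differed by 0.34 with a 95% interval of -0.01 to 0.69 and was not called. Il11 was near background in both states, and Ctf1, which encodes cardiotrophin 1, a further ligand that signals through gp130, fell as given above.

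**Figure D3:**
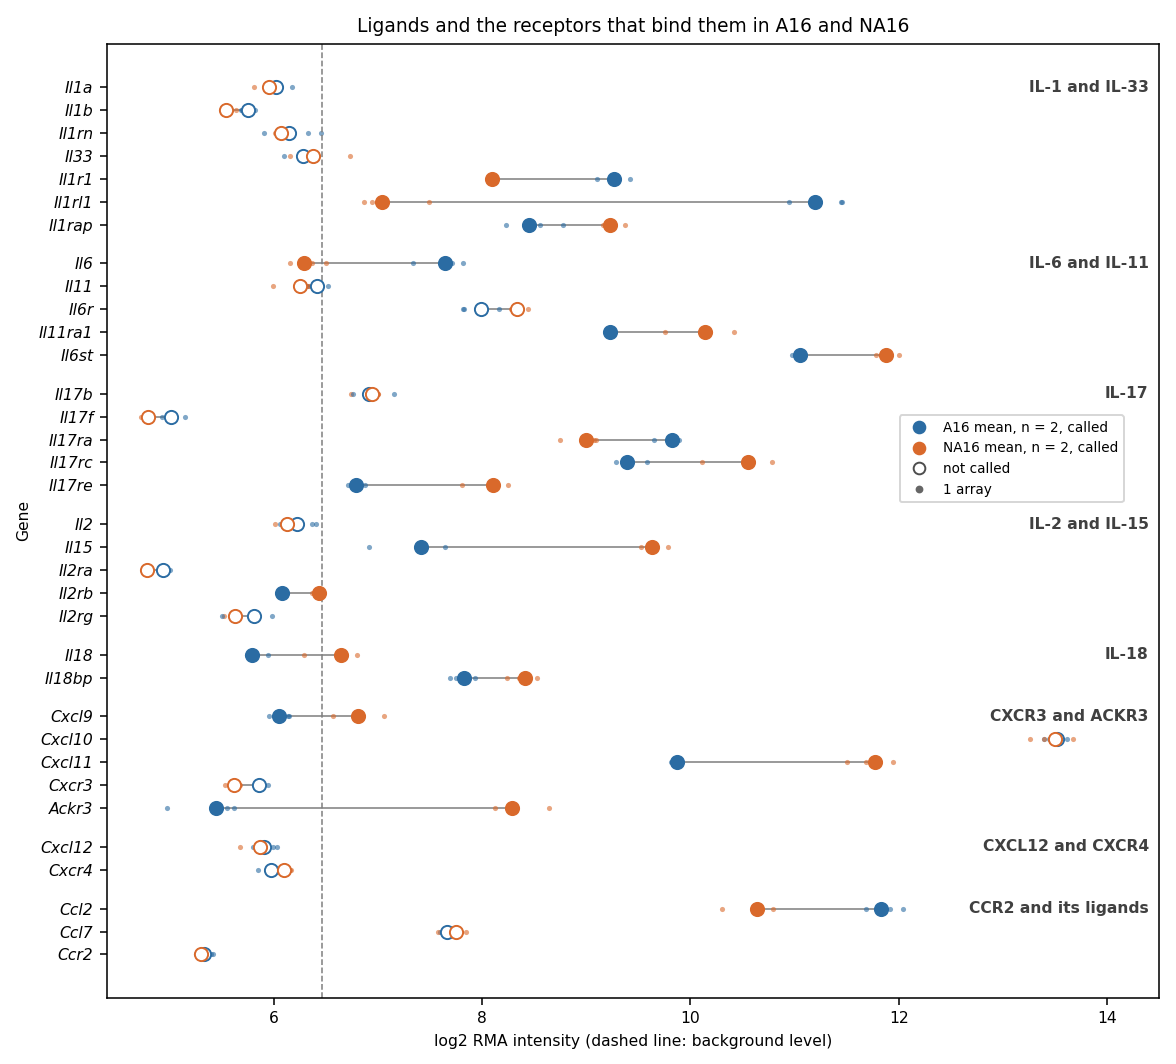
Log2 RMA intensity (horizontal axis) of ligand genes and of the receptor and binding protein genes that go with them, 1 gene a line, grouped by signalling system. Large symbols are the A16 (blue) and NA16 (orange) means over n = 2 replicates, filled where the gene was called, small dots are single arrays, and the dashed line is the background level of 6.47. Il1a, Il1b and Il33 lie left of the dashed line while Il1r1, Il1rl1 and Il1rap lie right of it, and Il1rl1 spans the widest distance, from 11.20 to 7.04.

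Of the 26 interleukin receptor and binding protein genes, 8 rose, 3 fell and 15 were not called, and 11 were near background. This was the role with the largest share of called genes, 42.3%, against 38.9% of all genes. The 3 genes that fell were Il1rl1, Il1r1 and Il17ra.

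Il1rl1 encodes ST2, the receptor of interleukin 33, which exists in a membrane and a secreted form. It read 11.45, 11.45 and 10.94 in A16 and 7.50, 6.94 and 6.86 in NA16. The Il1rl1 mean changed from 11.20 ± 0.36 to 7.04 ± 0.25 (SD, n = 2), and fell by 4.16 on the log2 scale (17.8-fold lower, SE 0.20, adjusted p = 5.0e-05). This was the largest change in either direction among the 94 genes. The NA16 mean was 0.57 above the background level but below the brightest reference gene, at 7.24. Its second probe set fell by 1.86, from 8.58 to 6.72, and was called as well. The probe sets were not assigned to the membrane or the secreted form here. Il33, the ligand, was near background on both of its probe sets.

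Il1r1 encodes the receptor of interleukin 1. It read 9.11, 9.42 and 9.27 in A16 and 8.11, 8.11 and 8.09 in NA16. The mean of Il1r1 went from 9.27 ± 0.01 to 8.10 ± 0.02 (SD, n = 2), and fell by 1.17 on the log2 scale (2.25-fold lower, SE 0.11, adjusted p = 3.0e-04). The 3 arrays of NA16 lay within 0.1 of each other and well below those of A16. The other 2 probe sets of Il1r1 were near background and were not called, at -0.34 and -0.50. Il1rap, the accessory chain that the receptors of interleukins 1 and 33 share, rose by 0.78, from 8.45 ± 0.31 to 9.23 ± 0.10 (SD, n = 2, adjusted p = 0.0089), and its second probe set rose by 0.49. The ligand-binding chains of both receptors thus fell while their shared chain rose. Il1rl2, the receptor of interleukin 36, was near background, and its change was -0.36 with RMA, not called (adjusted p = 0.053), and 0.71 with PLIER, so no direction is given.

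Of 14 measured adapters and kinases that act after these receptors 6 were higher and 1 was lower (50%, against 38.9% of all genes called), with a median change of 0.27. Irak3, a member that holds back signalling from this receptor family, rose by 2.27 on the log2 scale, from 9.35 to 11.62. Tollip, another inhibitor, rose by 0.93, and Irak1, a kinase that carries the signal onwards, fell by 1.05, from 11.61 to 10.55. Myd88, the adapter through which these receptors signal, rose by 0.79. The remaining genes called higher were Tab3 (0.72), Tab1 (0.54) and Traf6 (0.48). The named genes that carry the signal thus did not all move in 1 direction. Of 11 measured NF-kappaB subunits and inhibitors 3 were higher and 1 was lower (36.4%, close to the 38.9% of all genes), with a median change of 0.04. Nfkbiz, which encodes a nuclear inhibitor-like protein that binds NF-kappaB, rose by 2.19. Chuk, the kinase IKK alpha, fell by 1.26, and Relb, an NF-kappaB subunit, rose by 0.80. The call of Relb was lost in 7 of 18 alternative settings.

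The interleukin 17 receptor chains split. Il17ra encodes the chain common to these receptors and read 9.65, 9.86 and 9.89 in A16 and 8.75, 9.07 and 9.10 in NA16. It fell by 0.82 on the log2 scale (SE 0.13, n = 2, adjusted p = 0.0022), and the arrays of the states did not overlap. Il17rc, which pairs with it to bind interleukins 17A and 17F, read 9.41, 9.59 and 9.29 in A16 and 10.11, 10.51 and 10.79 in NA16. Its mean went from 9.39 ± 0.15 to 10.55 ± 0.33 (SD, n = 2), and rose by 1.16 on the log2 scale (2.23-fold higher, SE 0.18, adjusted p = 0.0022). The NA16 arrays of Il17rc spread over 0.67 but all lay above the A16 arrays. Il17re, which pairs with the common chain to bind interleukin 17C, read 6.72, 6.87 and 6.79 in A16 and 7.81, 8.14 and 8.24 in NA16. The Il17re mean moved from 6.79 ± 0.01 to 8.11 ± 0.19 (SD, n = 2), and rose by 1.32 on the log2 scale (2.5-fold higher, SE 0.13, adjusted p = 3.9e-04), and its second probe set rose by 1.17. The ligand genes in the set were dim, since Il17f was near background and Il17b differed by 0.03 at a mean close to 6.9.

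Il9r, the receptor of interleukin 9, rose by 0.90, from 5.82 in A16, below background, to 6.73 (adjusted p = 0.0036), and the NA16 mean lay 0.26 above the background level. The 5 receptor genes above background that were not called differed by 0.11 to 0.34, among them Il10rb, at 10.57 in A16 and 10.74 in NA16, and Il3ra, at 9.90 and 10.15. Of the 10 measured JAK and STAT genes, which serve most of these receptors, 6 were higher and 0 lower (60%, against 38.9% of all genes called), with a median change of 0.45. Stat2, a factor of the interferon response, rose by 1.24 on the log2 scale, Stat5b by 1.12 and the kinase Tyk2 by 0.61. The calls of these 3 genes were lost where technical replicate 2 was left out, and in 3 to 5 of 18 alternative settings in all. Of 11 SOCS and PIAS genes, which inhibit this pathway, 3 were higher and 0 lower (27.3%, against 38.9% of all genes called), with a median change of 0.30. Socs2 rose by 0.69, Cish by 0.58 and Pias4 by 0.58, and the calls of Socs2 and Pias4 were lost in 6 and 7 of 18 alternative settings.

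**Figure D4:**
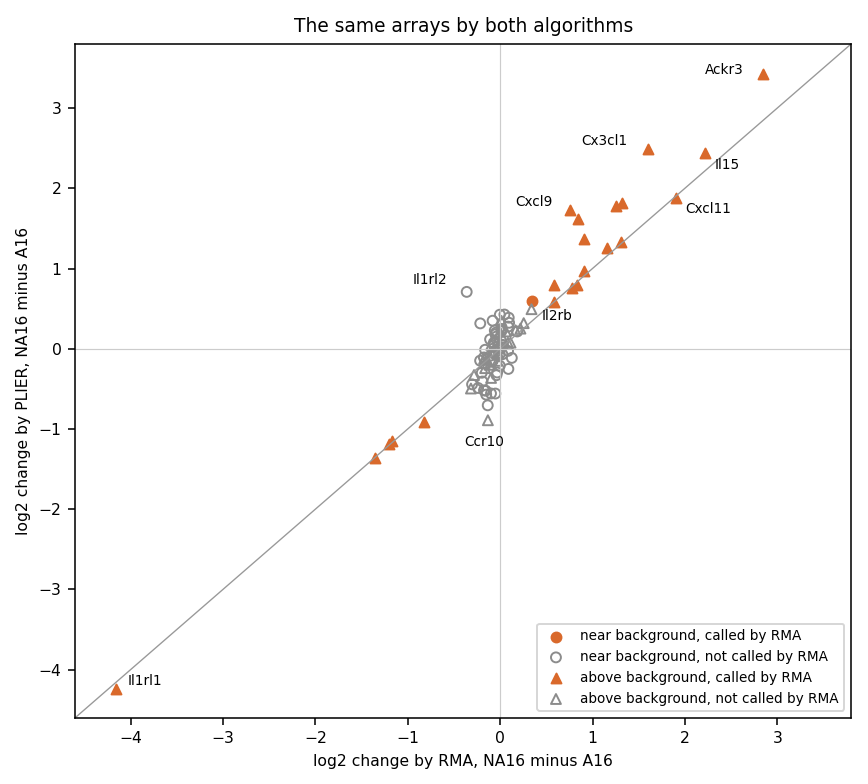
Change of the 94 genes (log2 NA16 minus A16) by RMA (horizontal axis) and by PLIER (vertical axis) from the same 6 arrays, with the line of equal values. Filled symbols are genes called by RMA, circles are near background and triangles above it. All 22 called genes have the same sign by both algorithms, and Cxcl9, Cx3cl1 and Ackr3 lie above the line.

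The plot of RMA against PLIER changes shows where the size of a change depends on the normalization. All 22 called genes kept their direction with PLIER and 16 of them had a larger change. Among the called genes the differences were greatest for Cxcl9 (0.75 with RMA and 1.73 with PLIER), Cx3cl1 (1.60 and 2.49) and Il18 (0.85 and 1.62). By RMA the A16 means of Cxcl9 and Il18 lay below the background level, and that of Cx3cl1 lay 1.08 above it. Il15 and Il23a had A16 means near that of Cx3cl1 by RMA only. They changed by 2.22 and 0.59 with RMA and by 2.44 and 0.58 with PLIER. By PLIER the A16 arrays of Cx3cl1 were dimmer, at 5.94, 5.52 and 6.01. Those of Il15 read 6.36, 6.82 and 6.86 and those of Il23a 6.82, 6.75 and 6.76. The source of the gap between the algorithms was not tested. The 49 genes near background changed by -0.36 to 0.35 with RMA and by -0.71 to 0.71 with PLIER.

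Since several of these genes are expressed strongly by leukocytes, markers of leukocytes and of fibroblasts were read from the same arrays. Of 25 measured leukocyte markers 17 were near background in both states, among them Ptprc, the common leukocyte antigen CD45, at 5.82 in A16 and 5.68 in NA16, and Cd3e, Cd8a and Ms4a1. Cd68, Lyz2 and Itgax were higher in NA16, by 1.46, 1.15 and 0.69, and no marker was called lower (12% called, against 38.9% of all genes). The summed linear intensity of the 25 markers lay between 3004 and 3426 on the A16 arrays and between 3236 and 3568 on the NA16 arrays, so the states overlapped. Cd14 made up much of this sum and differed by -0.35 (adjusted p = 0.067, not called). In sums chosen after seeing the data, the 24 markers without Cd14 gave 1618 to 1842 in A16 and 2140 to 2239 in NA16, which did not overlap. The 21 markers without Cd14, Cd68, Lyz2 and Itgax gave 1187 to 1338 in A16 and 1197 to 1278 in NA16. That sum left out every called marker, so nothing is concluded from its overlap. Every array came from the F111 line. Whether the rises of Cd68, Lyz2 and Itgax are linked to those of Ccl5, Il15 and Il18 was not tested. Of 15 fibroblast markers 13 were above background, 6 were higher and 0 lower (40%, against 38.9% of all genes called), with the largest rises in Pdgfrb (1.40), Lum (1.15) and Pdgfra (0.78), and Col1a1, Col1a2 and Vim were above 14 in both states. Dcn and Fap, which also mark fibroblasts, were near background, and Dcn was one of the 6 called higher (0.58, adjusted p = 0.045). Of the 13 markers above background 5 were thus called (38.5%, against 49.6% of all genes above background).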

How the data were processed

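RNA of F111 A16 and NA16 cells was hybridised to Affymetrix rat arrays. The deposited values were intensities on a linear scale, which the authors normalized by RMA and by PLIER, with versions not given in the sources used here. Both columns came from the same 6 arrays, so PLIER columns were not further samples, and no detection calls were used. The labels number the array of biological replicate 1 as technical replicate 1, so technical replicate 2 was averaged with it.

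Control probe sets were dropped, only probe sets with 1 symbol were used (20826 of 31042), and log2 of each intensity was taken. All 94 genes matched RefSeq by Entrez identifier. For the difference between NA16 and A16, limma 3.58.1 (R 4.3.3) was fitted with lmFit and eBayes. The p-values were adjusted after Benjamini and Hochberg over all 14217 genes and called at 0.05. Residual degrees of freedom were 2, and the prior ones 4.78. The script was tested on simulated data. Alternatives were the normalization, offsets, probe set choice, the handling of replicates and a gene-by-gene test with equal variance and adjusted p-values. The study states thresholds of fold and unadjusted p, and the sources used here do not name its test.

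Named were genes called with at least 2-fold change, the 3 members of highest mean in each role (a ranking of probe sets used only to choose names) and up to 3 called genes of each pathway list. Others, such as receptor partners, were chosen with their values known. The genes, lists and roles were chosen with earlier results of these data known.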

Additional observations from a re-analysis of the deposited data

How the results depend on the processing

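The number of genes that rose, 17 of 94, lay between 15 and 18 under every alternative but the gene-by-gene test, and between 15 and 17 where a replicate was left out. The number that fell, 5, was 5 in each fit without a replicate, 5 to 7 under most others, 9 with the replicate number as a block, 9 with every array as its own replicate and 13 with PLIER. In fits without a replicate the lone array or pair of arrays was assumed to vary like the other state. The gene-by-gene test with equal variance gave 0 genes higher and 0 lower among the 94 after adjustment, and 13 higher and 7 lower among all genes; without adjustment, but with a change over 2-fold, it passed 11 of the 94. Without a replicate, 2439 to 2631 of all genes were higher and 2010 to 2078 lower. Of the 22 called genes, only Il2rb and Il18bp lost their call in any alternative apart from that test. With the median of all genes (8.77) as the background level, 75 of the 94 genes lay below it in place of 49. Il1rl2 reversed to 0.71 with PLIER. The cause of these shifts was not tested.

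The replicate numbers were shared by the states, and the differences between replicates 1 and 2 correlated by 0.557 over genes between the states. With only 2 numbers this does not show that they pair the samples. The block kept all 22 calls and gave 18 genes higher and 9 lower. In NA16, technical replicate 2 lay closer to biological replicate 2 (r = 0.997 over genes) than to biological replicate 1 (r = 0.992), and the reverse held in A16 (0.998 with biological replicate 1). An alternative chosen after seeing the data averaged it with its closest array in each state, which gave 16 genes higher and 5 lower.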
